A study of Mus musculus with 4 samples.

Results

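The genes described here are 9 matrix genes that TGF-β is known to induce, measured in mouse ovarian cancer cells with and without knockdown of USP9X, a deubiquitinase, that is, an enzyme that removes ubiquitin from other proteins. They are the matricellular genes Thbs1, Thbs2, Tnc, Sparc, Postn and Tgfbi, the scaffold genes Fn1 and Fbn1, and Lox, a cross-linking enzyme. The genes were taken by symbol, and all 9 of 9 were found among the 22063 genes of the expression table. Matricellular proteins are secreted into the extracellular matrix and change how cells adhere to it and sense growth factors, while matrix scaffolds and their cross-linking enzymes build the matrix itself. TGF-β binds a pair of serine/threonine kinase receptors, which phosphorylate Smad2 and Smad3, and these enter the nucleus with Smad4 and raise the transcription of many such genes. In ovarian cancer, matrix made by tumour and stromal cells is the surface on which cells attach and spread in the peritoneum.

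The samples were 4 libraries of poly(A) RNA from ID8, a line derived from mouse ovarian surface epithelium. Of these, 2 carried a control short hairpin RNA (shCtrl, genotype given as wild type) and 2 a hairpin against Usp9x (shUSP9X, genotype given as knockdown). According to the study's methods, hairpins were delivered by lentivirus with a puromycin resistance gene. Whether TGF-β was added to these cells, their oxygen level, which hairpin sequence they carried and whether they came from 1 clone are not given in the sources used here. Library totals were 17232006 and 15611363 for shCtrl, against 19978889 and 17021261 counts for shUSP9X. Nothing says that replicates came from separate cultures, so the p-values measure the spread between these 4 libraries, which may be technical.

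Usp9x, the gene targeted by the hairpin (ENSMUSG00000031010, X:13071498-13173328 in GRCm38), had 5169 and 4453 counts in shCtrl against 390 and 346 in shUSP9X. The groups did not overlap, and its level fell in the libraries labelled as knockdown. Its log2 fold change was -3.85 ± 0.06 (SE, n = 2 and 2; adjusted p = 4.66e-26, quasi-likelihood test of edgeR over 11448 genes). With the trends of GC content and transcript length removed (a fit described further on), it was -2.38 ± 0.05. In all sentences below, log2 fold changes are shUSP9X over shCtrl from this test, with Benjamini-Hochberg adjustment over all genes tested. Of the 12 markers of ovarian surface epithelium and mesothelium, the keratin gene Krt19 was the most abundant, with 12190 and 11246 counts in shCtrl against 15535 and 12647 in shUSP9X. The mesothelial genes Msln and Wt1 were also abundant, at 8207 and 7777 against 6955 and 5834 counts for Msln, and 6210 and 5892 against 5070 and 4253 for Wt1. Both fell, with log2 fold changes of -0.47 ± 0.04 and -0.52 ± 0.04 (SE), and of -0.79 and -0.78 after removal of both trends. The keratin genes Krt8 (5441 and 5119 against 11905 and 10141 counts; log2 fold change 0.92 ± 0.04, SE) and Krt18 (0.64 ± 0.04) rose, by 0.59 and 0.27 after removal of both trends, as did Upk1b (0.68 ± 0.04), whereas Muc16, which passed the filter through the shCtrl libraries alone, had 33 and 43 against 1 and 0 counts. Other epithelial genes, Epcam, Pax8 and Krt7 had between 0 and 9 counts in every library.

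Promoter sequence was available for 6 of the 9 genes, those other than Thbs1, Fn1 and Lox, from RefSeq (GRCm38.p6), as 250 bases before to 50 after each start site. The 5-letter Smad box CAGAC, which reads as GTCTG on the other strand and to which Smad3 and Smad4 bind, was present in 49.6% of all 32851 promoters of this length. It occurred in Tnc, Sparc, Thbs2, Tgfbi and Postn and not in Fbn1. That share is per promoter sequence, and the 6 genes have 8 sequences, so a gene with more start sites has more chances of a match. In Postn the box lay near the start site at 54359267 and not near that at 54361107. One window of 25 bases for each gene is shown, since all of these genes are known TGF-β targets and yet differed widely in level; capitals mark the box, and each window reads 5′ to 3′ on the gene's strand.
Tnc, chr4:64046992-64047016, minus strand: gggaaaggatGTCTGgaggcgaggc
Sparc, chr11:55420101-55420125, minus strand: tgaccctcatGTCTGtttaggcagg
Thbs2, chr17:14694291-14694315, minus strand: ccgggcccctGTCTGgaaagcctgg
Tgfbi, chr13:56609491-56609515, plus strand: tagtggcgtgGTCTGggaggcgccg
Postn, chr3:54359066-54359090, plus strand: ggctcagagcCAGACtttagctttg

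The 250 bases upstream of the outer Tnc start site are shown as the promoter of the gene with the largest fold decrease of the 6 tested, with the TATAAA motif at -126 in capitals (chr4:64047016-64047265, minus strand).
Tnc: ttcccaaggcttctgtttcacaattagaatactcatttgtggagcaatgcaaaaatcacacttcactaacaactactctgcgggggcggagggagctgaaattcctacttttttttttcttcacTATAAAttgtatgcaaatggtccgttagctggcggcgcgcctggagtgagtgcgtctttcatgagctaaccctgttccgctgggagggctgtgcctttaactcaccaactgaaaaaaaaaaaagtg
The motif TATAAA, which reads as TTTATA on the other strand, was present on either strand in 13.6% of all promoters, and among these genes in Tnc, Thbs2 and Postn. The AP-1 motif, searched as TGAGTCA and on the other strand as TGACTCA, occurred in 5.2% of all promoters, and the TEAD core GGAATG, searched on both strands, in 14.7%. Neither motif was found in any of the 8 promoter sequences of the 6 genes. These matches describe the letters of the window and not binding.

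Of the 9 genes, 6 had enough counts to be tested. All 6 had lower levels in shUSP9X, by amounts from 1.05-fold for Sparc to 4.98-fold for Tnc. Tnc, Fn1, Thbs1 and Lox fell by more than 1.5-fold, while Thbs2, Tgfbi and Postn had at most 4 counts in any library. At an adjusted p under 0.05, 6 were lower and 0 higher in shUSP9X, in a comparison in which 33.6% of all genes tested were lower and 33.8% higher. With a change of over 1.5-fold also required, at a p under 0.05 before adjustment, 4 were lower and 0 higher, beside 18.7% and 10.8% of all genes. The groups did not overlap for any of the 6, a pattern seen in 41% of all genes in the lower and 41.2% in the higher direction. The median log2 fold change of the 6 was -0.90, that of all genes tested 0.00 (-0.000513).

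The fold changes in these libraries moved with the GC content and length of transcripts. Across genes, the Spearman rho of log2 fold change was 0.429 with the GC content and -0.322 with the length of the longest GENCODE M21 transcript, a description, since genes share libraries and are not independent. A fit that removes both trends is therefore given beside each of the 6 genes, and beside other genes whose log2 fold change is given and moved by over 1.5 times or turned its sign. In it, 5 of the 6 genes were lower and 0 higher, beside 28.2% and 35.9% of all genes, and the median log2 fold change of the 6 was -0.67, with 0.03 for all genes.

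**Figure D1:**
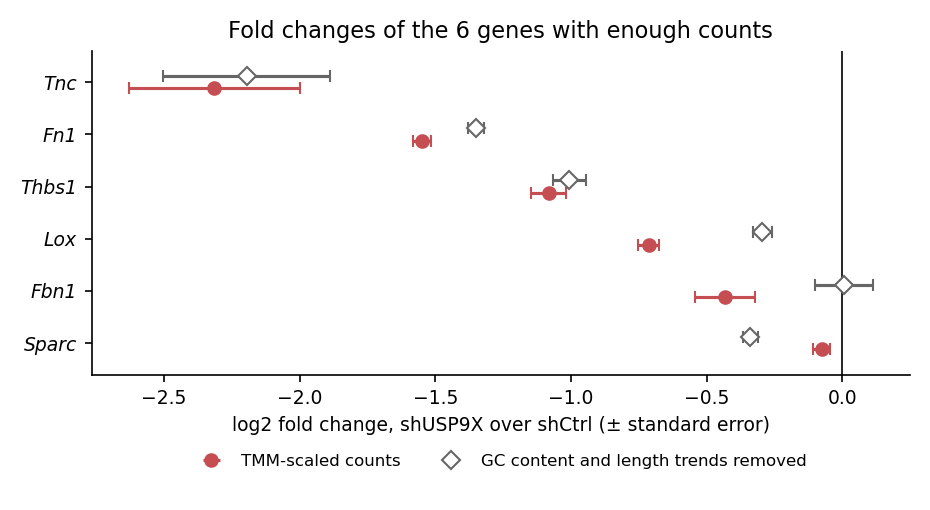
Log2 fold change (x axis, shUSP9X over shCtrl) of the 6 genes tested, with bars of 1 standard error, from TMM-scaled counts (filled circles) and after removal of GC content and length trends (open diamonds). Tnc, Fn1 and Thbs1 lie below -1 in both fits, Lox moves from -0.71 to -0.30, Fbn1 from -0.43 to 0.00, and Sparc from -0.08 to -0.34.

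Tnc encodes tenascin-C, a large many-armed glycoprotein that modulates adhesion to fibronectin and is abundant in wounds and tumour stroma. The gene (ENSMUSG00000028364, 4:63959785-64047015, minus strand) had 81 and 78 counts in shCtrl against 16 and 19 in shUSP9X. Both knockdown libraries were thus well below both controls, though at low depth. In CPM, counts scaled to a common library size, its level was 4.80 ± 0.185 in shCtrl and 0.969 ± 0.225 in shUSP9X (SD, n = 2 each). It fell by 79.9%, a log2 fold change of -2.31 ± 0.32 (SE; adjusted p = 3.75e-07, edgeR). After removal of the GC and length trends the log2 fold change was -2.20 ± 0.31.

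Thbs1 encodes thrombospondin 1, which binds CD47 and integrins and can release active TGF-β from its latent complex. The gene (ENSMUSG00000040152, 2:118111876-118127133) had 1304 and 1237 counts in shCtrl against 715 and 610 in shUSP9X. Its CPM was 76.7 ± 2.15 in shCtrl and 36.2 ± 0.0229 in shUSP9X (SD, n = 2 each). The groups were separated by far more than the spread within either. Thbs1 fell by 52.8%, with a log2 fold change of -1.08 ± 0.07 (SE; adjusted p = 7.39e-14, edgeR), and of -1.01 ± 0.06 with both trends removed.

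Sparc encodes osteonectin, a collagen-binding protein with counter-adhesive activity. The gene (ENSMUSG00000018593, 11:55394500-55423183, minus strand) had 22835 and 20126 counts in shCtrl against 24206 and 20757 in shUSP9X, the larger numbers in shUSP9X going with larger libraries. Its CPM was 1317 and 1273 in shCtrl and 1225 and 1232 in shUSP9X, so the groups were close without overlapping. The log2 fold change was -0.08 ± 0.03 (SE; adjusted p = 0.0308, edgeR), so that it decreased by 5.14%. This call was kept under 11 of 18 alternatives. It was lost, among others, with DESeq2 (-0.07), with upper quartile scaling (-0.04), without the first shCtrl library (-0.04) and without the first or the second shUSP9X library (-0.07 each), with adjusted p up to 0.305. With both trends removed the log2 fold change was larger, at -0.34 ± 0.03.

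The other 3 matricellular genes were hardly present. Thbs2 (thrombospondin 2, ENSMUSG00000023885) had 2, 1, 0 and 1 counts in shCtrl 1, shCtrl 2, shUSP9X 1 and shUSP9X 2. Postn (periostin, a ligand of αv integrins made by fibroblasts and osteoblasts, ENSMUSG00000027750) had 1, 0, 0 and 0 counts, and Tgfbi (the TGF-β-induced protein, an integrin-binding matrix protein, ENSMUSG00000035493) had 1, 1, 4 and 2. With 3 counts taken as the floor in a library, which corresponds to between 0.152 and 0.190 CPM, the mean of each group was at or under the floor for all 3 genes, so no fold change is given, and a difference was not detectable at this depth.

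Fn1 encodes fibronectin, the adhesive glycoprotein that cells assemble into fibrils through α5β1 integrin. The gene (ENSMUSG00000026193, 1:71585520-71653200, minus strand) had 26826 and 25023 counts in shCtrl against 10291 and 9253 in shUSP9X. Its CPM was 1565 ± 25.2 in shCtrl and 535 ± 20.2 in shUSP9X (SD, n = 2 each). The knockdown libraries were close to each other and far below both controls. Fn1 fell by 65.8%, a log2 fold change of -1.55 ± 0.03 (SE; adjusted p = 2.76e-23, edgeR). With both trends removed it was -1.35 ± 0.03, and with the length trend alone removed -0.95.

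Fbn1 encodes fibrillin-1, the backbone of microfibrils, which also hold latent TGF-β in the matrix. The gene (ENSMUSG00000027204, 2:125300594-125507993, minus strand) had 358 and 315 counts in shCtrl against 300 and 250 in shUSP9X, or 20.3 ± 0.511 and 15.0 ± 0.240 CPM (SD, n = 2 each). The groups did not overlap, and the log2 fold change was -0.43 ± 0.11 (SE; adjusted p = 0.00116, edgeR), a decrease of 26.0%. This decrease was larger with the GC trend alone removed (-0.58; adjusted p = 9.12e-05, edgeR) and was not kept in fits that removed the length trend. With both trends removed the log2 fold change was 0.00 ± 0.11 (adjusted p = 0.976, edgeR), and with the length trend alone removed it was 0.41 (adjusted p = 0.00244, edgeR). Its longest transcript has 11971 bases, and the decile of genes to which it belongs by length had a median log2 fold change of -0.43.

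Lox encodes lysyl oxidase, the copper enzyme that cross-links collagen and elastin. The gene (ENSMUSG00000024529) had 6027 and 5604 counts in shCtrl against 4212 and 3617 in shUSP9X. Its CPM was 351 ± 4.85 in shCtrl and 214 ± 1.12 in shUSP9X (SD, n = 2 each), so that each shUSP9X library was below each shCtrl library. Lox fell by 39.1%, a log2 fold change of -0.71 ± 0.04 (SE; adjusted p = 5.93e-15, edgeR). It remained lower with both trends removed, at -0.30 ± 0.03 (adjusted p = 2.80e-07, edgeR).

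The 6 genes differed in the transcript properties that the fold changes followed. Lox had the lowest GC content of them, 43.9%, and the decile of genes around it had a median log2 fold change of -0.20. Thbs1 (49.9%), Fbn1 (52.3%), Sparc (52.5%), Tnc (52.5%) and Fn1 (53.5%) lay in deciles whose medians were above 0, from 0.13 to 0.23. By length, Tnc (7106 bases), Fn1 (8315 bases) and Fbn1 shared the longest decile, with a median of -0.43, while Thbs1 (5848 bases) lay in a decile with a median of -0.20 and Lox (4741 bases) in one of -0.12. Sparc, the shortest at 2300 bases, lay in a decile with a median of 0.10. Tnc, Fn1, Thbs1, Lox and Sparc were lower than the medians of both their deciles, and Fbn1 was lower than that of its GC decile and equal to that of its length decile.

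**Figure D2:**
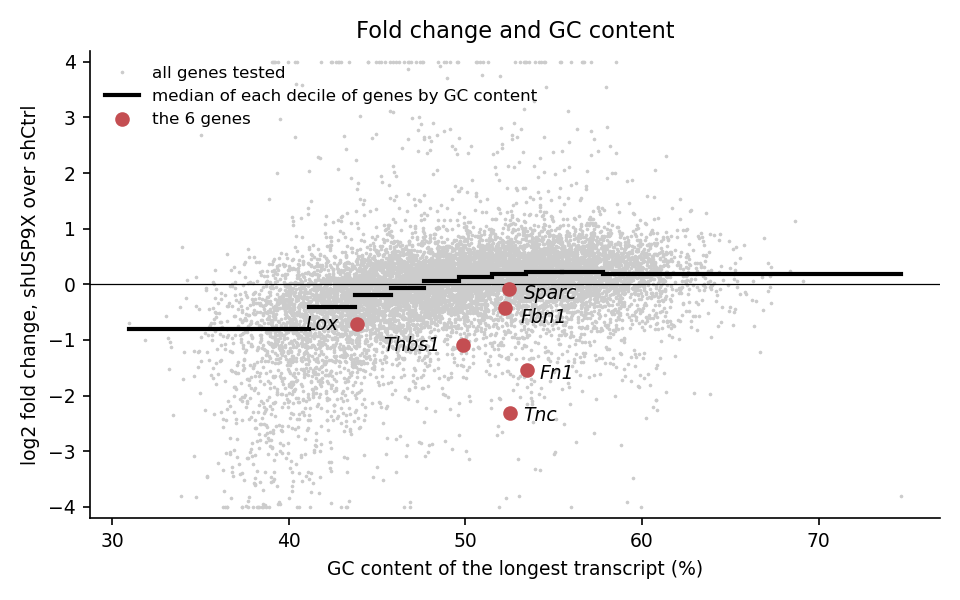
Log2 fold change (y axis, shUSP9X over shCtrl) against the GC content of the longest transcript (x axis, percent) for all genes tested (grey; values beyond 4 in size are drawn at 4), with the median of each decile of genes by GC content (black bars) and the 6 genes (red). Median bars run from -0.80 in the lowest decile to 0.23, and all 6 red points lie below the bar of their own decile.

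FPKM, a level scaled for transcript length and library size, allows genes to be compared with each other. In both groups the order was Sparc, Fn1, Lox, Thbs1, Fbn1 and Tnc, and no neighbours in that order overlapped within a group. Sparc had 617 and 618 FPKM in shCtrl and 585 and 582 in shUSP9X. Fn1 had 198 and 203 FPKM in shCtrl and 65.2 and 68.6 in shUSP9X. The FPKM ratio of Sparc to Fn1 was therefore 3.11 and 3.04 in shCtrl and 8.98 and 8.49 in shUSP9X, so the order stayed while the gap between the most abundant pair widened. Lox followed with 74.3 and 76.3 against 45.0 and 45.1 FPKM, and Thbs1 with 12.9 and 13.5 against 6.12 and 6.13. Fbn1 was lower still, with 2.11 and 2.05 FPKM in shCtrl and 1.53 and 1.49 in shUSP9X. Tnc, which had the largest relative decrease, was the lowest of the 6, at 0.672 and 0.717 against 0.117 and 0.157 FPKM. FPKM does not remove the trends of fold change with GC content and length, which the ratios here and the shares below carry. With both trends removed the log2 fold changes of Sparc and Fn1 were -0.34 and -1.35, against -0.08 and -1.55 before.

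Summed over the 9 genes, FPKM was 905 and 914 in shCtrl and 703 and 704 in shUSP9X. Fn1 made up 21.9% and 22.3% of this sum in shCtrl and 9.27% and 9.75% in shUSP9X, while Sparc made up 68.1% and 67.6%, then 83.2% and 82.7%. The other 3 genes had at most 0.074 FPKM, which rests on 4 counts or fewer, and their order was not resolved.

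**Figure D3:**
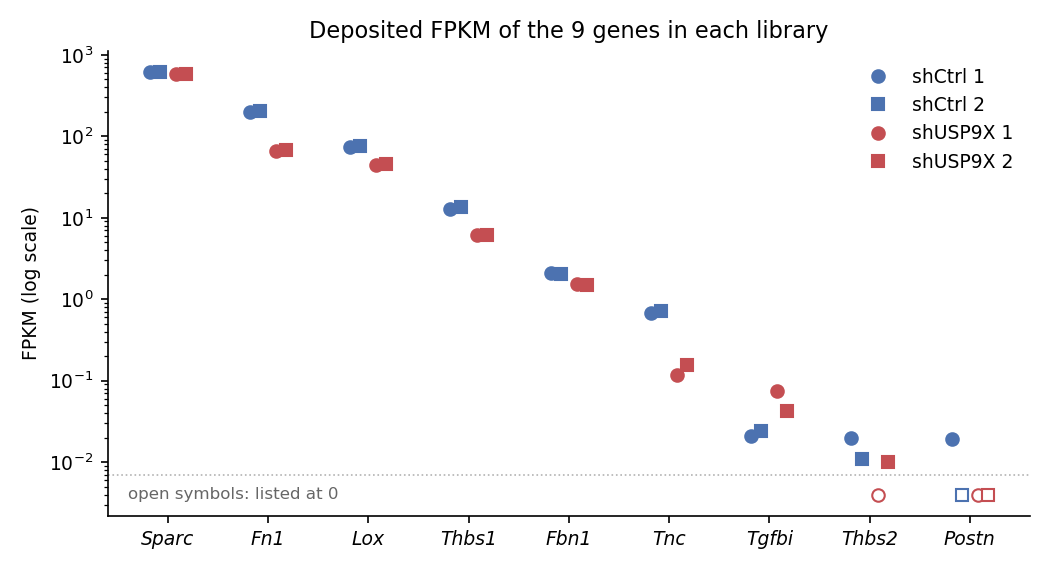
FPKM of the 9 genes (y axis, log scale) in shCtrl (blue) and shUSP9X (red) libraries, replicate 1 as circles and replicate 2 as squares; open symbols under the dotted line are libraries in which a gene was listed at 0. Sparc stays near 600 in all 4 libraries, Fn1, Lox, Thbs1 and Tnc drop visibly, and Tgfbi, Thbs2 and Postn rest on a few counts.

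Other matrix genes were read from hand-written lists, whose counts stand against 33.6% of all genes lower and 33.8% higher, or 28.2% and 35.9% with both trends removed. Of 22 other matricellular genes, 7 were tested, 4 were lower and 1 higher, with a median log2 fold change of -0.65, and the same numbers were called with both trends removed. Spp1 (osteopontin, an integrin ligand) fell from 42323 and 36766 to 26719 and 23170 counts (log2 fold change -0.81 ± 0.03, SE). Ccn4, a Wnt-inducible protein of the CCN family, changed about as much, at -0.82 ± 0.04. Tnxb, a tenascin of collagen-rich tissue, rose in contrast to Tnc, from 318 and 337 to 832 and 807 counts (1.18 ± 0.10, SE). Ccn2 (connective tissue growth factor) did not pass the test, with 1825 and 1571 against 2134 and 1812 counts (0.07 ± 0.05; adjusted p = 0.201, edgeR; -0.07 with both trends removed). Other thrombospondins were at low counts. Thbs3 had 18 and 6 counts in shCtrl against 22 and 13 in shUSP9X and did not pass, and Thbs4 was at 0 in all 4 libraries.

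The partners of Fbn1 in microfibrils and elastic fibres formed a list of 24 genes, of which 13 were tested, 8 lower and 2 higher, with a median log2 fold change of -0.40, and 6 lower and 2 higher with both trends removed. Adamts6 (35 and 22 against 7 and 9 counts) and Emilin1 (13 and 11 against 8 and 5) passed the filter through the shCtrl libraries alone. Their direction was therefore fixed, and Emilin1 did not pass the test. Without both genes the median of the list is the log2 fold change of Mfap3, -0.26 (0.00 for Mfap3 itself with both trends removed). With both trends removed the median without both genes is that of Ltbp4, -0.12 (-0.16 for Ltbp4 before). With at least 10 counts required in every library 7 were lower. The 6 lower with both trends removed still include Adamts6. Adamtsl4 and Adamts10, which associate with fibrillin microfibrils, fell, with log2 fold changes of -0.81 and -0.79. Ltbp1, which ties latent TGF-β to the matrix, rose from 2364 and 2187 to 4502 and 3649 counts (0.69 ± 0.04, SE), and Efemp2 (fibulin-4, needed for elastic fibre assembly) rose by 0.57 ± 0.06, or by 0.30 with both trends removed. Fbn2, Mfap2, Mfap4, Fbln7 and Adamtsl2 were at 0 counts in all 4 libraries.

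For Lox, the list of 12 relatives and processing enzymes had 10 tested, of which 5 were lower and 4 higher (median log2 fold change -0.03), and 6 lower and 3 higher with both trends removed (median -0.25). Adamts2 (24 and 33 against 5 and 1 counts) likewise passed through shCtrl alone, and with at least 10 counts in every library 4 were lower. The 6 lower with both trends removed still include Adamts2. Without Adamts2 the median of the list turns its sign, to the log2 fold change of Adamts14, 0.16. With both trends removed it is then that of Pcolce, -0.10 (0.17 for Pcolce before). The relatives of Lox did not move as 1 group. Loxl2 fell from 5826 and 5336 to 4067 and 3477 counts (-0.71 ± 0.04, SE), and Loxl3 fell by 0.62 on the log2 scale, while Loxl4 rose by 0.41 ± 0.07, or by 0.16 with both trends removed. Furin, the convertase that cleaves pro-TGF-β, rose by 0.57 ± 0.05.

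Among 22 cell surface receptors of these proteins, 15 were tested, 9 were lower and 4 higher, with a median log2 fold change of -0.17. Itgb8, the β subunit of an integrin that activates latent TGF-β, fell from 216 and 168 to 56 and 47 counts (-2.04 ± 0.19, SE), and by less with both trends removed (-0.83). Lrp1, an endocytic receptor for thrombospondins, fell by 0.56 on the log2 scale, but not with both trends removed (-0.04; adjusted p = 0.322, edgeR). Sdc1 (syndecan-1) and Itga3 rose, by 0.59 ± 0.04 and 0.42 ± 0.03 (SE), with 0.31 for Sdc1 when both trends were removed. With both trends removed, 5 receptors were lower and 6 higher, shares not far from those of all genes in that fit.

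The other genes that TGF-β induces changed in both directions. Of 34, 26 were tested, 14 were lower, 9 higher and 3 did not pass (median log2 fold change -0.17), and 10 were lower and 6 higher with both trends removed. A pair of fibrillar collagen genes had the largest decreases. Col5a2 fell from 208 and 217 to 55 and 52 counts (-2.13 ± 0.18, SE), and Col1a1 from 1174 and 1245 to 452 and 362 (-1.72 ± 0.08, SE). Plaur (the urokinase receptor) rose from 1090 and 1022 to 2800 and 2374 counts (1.15 ± 0.05, SE). Decreases of Tnc and Fn1 thus stood beside increases of other TGF-β targets in the same libraries.

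The signal chain itself, a list of 14 genes with 11 tested, had 4 lower and 3 higher (median log2 fold change -0.05), and 3 lower and 4 higher with both trends removed. Tgfbr1, the type I receptor, fell from 2231 and 2044 to 1391 and 1180 counts (-0.88 ± 0.05, SE), but not with both trends removed (0.00; adjusted p = 0.955, edgeR). Among the ligands, Tgfb2 fell (-0.66 ± 0.09, SE) and Tgfb1 rose (0.44 ± 0.08, SE, or 0.20 with both trends removed). The counts of Smad2 (935 and 941 against 1076 and 897) and Smad4 (1434 and 1419 against 1662 and 1394) did not pass the test, whereas Smad3 rose by 0.27 ± 0.05. With both trends removed Smad2 was higher (0.53) and Smad4 lower (-0.19), both past the threshold in edgeR. These Smads were chosen for mention after their values were seen.

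**Figure D4:**
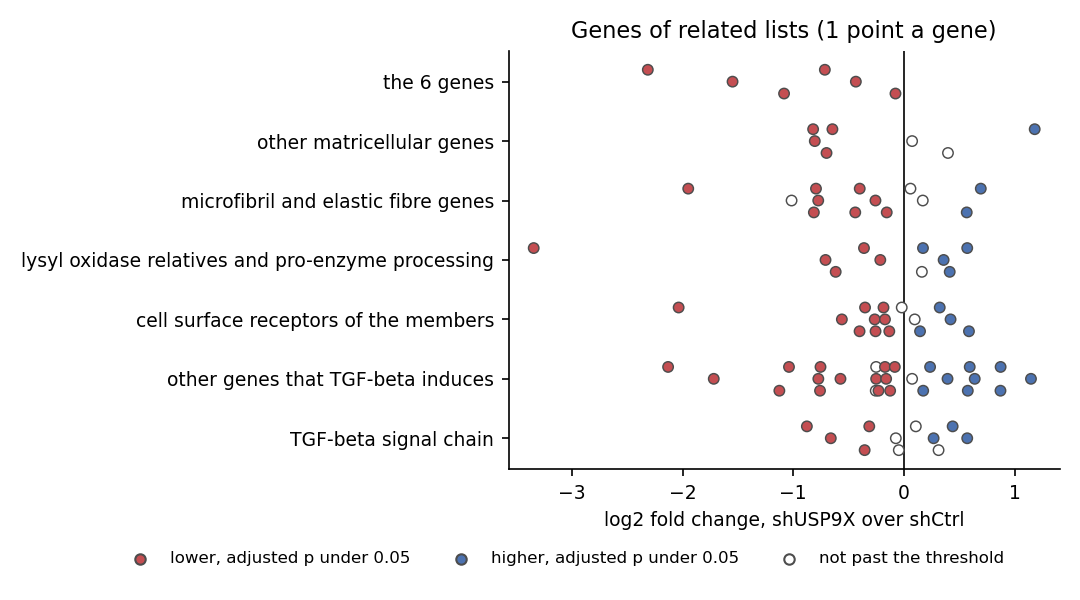
Log2 fold change (x axis, shUSP9X over shCtrl) of the 6 genes and of the tested genes of 6 related lists (1 row a list, 1 point a gene; vertical spread only separates points), red where lower and blue where higher at an adjusted p under 0.05, white otherwise. The 6 genes are all red, and every other row holds both red and blue points.

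For each of the 6 genes, the gene with the most similar profile was sought among the other members and the tested list genes (84 candidates), by Euclidean distance of centred log2 CPM over the 4 libraries. Lox was nearest to Loxl2 (distance 0.0171), Sparc to Tpm1 (0.0565), Fbn1 to Sdc2 (0.0614) and Thbs1 to Skil (0.0647). Fn1 was nearest to Col1a1 (0.242) and Tnc to Col5a2 (0.255), where larger changes and noisier counts also make the distance larger. These distances were taken with both trends still in the data. After removal of both trends Skil, an inhibitor of Smads, had a log2 fold change of -0.07 (adjusted p = 0.323, edgeR), against -1.04 before, whereas Thbs1 kept -1.01. Lox was then at -0.30 and Loxl2 at -0.73, and Fbn1 at 0.00 and Sdc2 at 0.17 (-0.40 before). Sparc was at -0.34 and Tpm1 at -0.28 (-0.12 before), Fn1 at -1.35 and Col1a1 at -1.70, and Tnc at -2.20 and Col5a2 at -1.97.

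Markers of other cell types that make these genes were read in the same libraries. Counts of calls among them stand beside 33.6% of all genes lower and 33.8% higher, or 28.2% and 35.9% with both trends removed. Of 10 fibroblast and pericyte markers, 4 were tested, 2 were lower and 0 higher, and their summed level was 186 and 183 CPM in shCtrl and 127 and 125 in shUSP9X. Dcn (decorin), the most abundant, had 2919 and 2634 counts in shCtrl against 2434 and 2032 in shUSP9X, and Pdgfra fell from 272 and 215 to 34 and 39 counts. After removal of both trends Dcn turned from -0.46 to 0.83 on the log2 scale, past the threshold in edgeR both times, and the list then had 1 lower and 1 higher. The defining markers Pdgfrb, Lum and Thy1 were at 0 in all 4 libraries. In bulk RNA, fewer cells of a type and less RNA per cell cannot be told apart.

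The 8 macrophage and monocyte markers had summed levels of 4.73 and 5.12 CPM in shCtrl and 11.6 and 10.7 in shUSP9X. Adgre1 had 0 and 0 against 58 and 59 counts, Ptprc 0 and 0 against 29 and 18, and Csf1r 0 and 0 against 17 and 13. These 3 genes passed the filter through the shUSP9X libraries alone, so their direction was fixed and no count of calls is read from the list. In contrast, C1qa and C1qb were at 0 in every library and the most abundant, Cd68, did not pass (74 and 68 against 118 and 85). Of 8 endothelial markers 3 were tested, with 1 lower and 1 higher, shares near those of all genes (33.6% and 33.8%). Cdh5, Kdr and Emcn were at 0 throughout. The summed level of the 8 was 20.2 and 24.7 CPM in shCtrl and 34.6 and 33.1 in shUSP9X. Esam was the most abundant of them over the 4 libraries. The 12 surface epithelium and mesothelium markers summed to 2567 and 2598 CPM in shCtrl and 3020 and 2971 in shUSP9X. Of these, 9 were tested, with 3 lower (Muc16 among them) and 4 higher, beside 33.6% and 33.8% of all genes. After removal of both trends 5 were lower and 3 higher, beside 28.2% and 35.9% of all genes. None of 5 platelet and megakaryocyte markers had enough counts to test, and they summed to at most 1.11 CPM. The part of these differences in the levels of Thbs1, Tnc, Fn1 and the other genes was not tested.

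Exons of 5 of the genes overlap a gene on the opposite strand that the table does not list. The overlap was 2442 bases for Fbn1 (with Gm9913), 292 for Fn1 (Apol7d), 208 for Thbs1 (Gm29233), 176 for Tnc (8030451A03Rik) and 30 for Lox (AC161119.1). Whether counting used strand is not given in the sources used here, so reads that lie within these shared bases cannot be assigned to 1 of the 2 genes.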

How the data were processed

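Poly(A) RNA of 4 ID8 libraries was sequenced, and samples were grouped by their labels. The submitters' processing notes name fastp 0.18.0, Bowtie2 2.2.8, HISAT2, StringTie 1.3.1 and RSEM, and the study's methods name GRCm38. The authors deposited expected counts (estimated counts per gene, not normalized), of which 6.40 to 6.69% per library were not whole, and FPKM values scaled for length and depth. The test had been planned for whole counts, so the expected counts were rounded. Counts passing filterByExpr were TMM-scaled, and edgeR 4.0.16 under R 4.3.3 gave quasi-likelihood p-values, adjusted by Benjamini-Hochberg over 11448 genes. The SE is the log2 fold change divided by the square root of F. CPM uses TMM-scaled library sizes. The GC and length offset subtracts loess trends (span 0.3) on the longest GENCODE M21 transcript, which 99.8% of genes tested have. Molecular identifiers are not described, so floors cover counting error only. Replicates differed by more than sampling noise (chi-square per gene 3.35 in shCtrl and 2.23 in shUSP9X), so each was counted. DESeq2 1.42.0 and limma 3.58.1 served as alternatives. Tested on simulated data without a GC trend, the fit called few unchanged genes. With a GC trend added it called many of them, and few once the offset was used. No length trend was added to the simulated data, so the length part of the offset was not tested.

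The members, gene lists and tests were chosen with earlier results of these data known. Named genes were the members, Usp9x, in each list the 2 largest decreases and 2 largest increases with an adjusted p under 0.05 and a mean log2 CPM of at least 1, the nearest profile of each member, and markers by their most abundant gene. Others were chosen after their values were seen. A gene that this rule names is not reported here.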

Additional observations from a re-analysis of the deposited data

How the results depend on the processing

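Values of the 6 genes tested were recomputed under other scalings, filters, tools and trend corrections and without each library, of which the removal of the GC trend alone and of the length trend alone were chosen after seeing the data. The calls of Tnc, Fn1, Thbs1 and Lox were kept in every alternative that gave a value (16 for Tnc, whose FPKM was too low for 2 of the FPKM fits, and 18 for the others). The number of genes lower ranged from 4 to 6, and 1 was higher only with the length trend alone removed, which was Fbn1, reversed to 0.41. Fbn1 lost its call and its difference with both trends removed (0.0041, and 0.0034 with the replicate block). In the 3 FPKM fits it lost the call at -0.30, -0.44 and -0.30 (adjusted p from 0.0606 to 0.0785, limma). The cause was not tested. The median log2 fold change of the 6 was -0.87 with upper quartile scaling, -0.65 with log2(FPKM + 1) unfiltered, -0.67 with both trends removed, also with the replicate block, and -0.62 with the length trend alone removed. In the filtered FPKM fits, which hold 5 of the genes without Tnc, the median was -0.73 with log2(FPKM + 1) and -0.74 with log2(FPKM + 0.1). On log2(FPKM + 1) unfiltered, Tnc was at -0.58, since the pseudocount exceeds its level. Of the 79 tested genes of the 6 lists, each counted once, 43 were lower and 22 higher. The 43 include Adamts6 and Adamts2, which passed the filter through shCtrl alone, so their direction was fixed. With at least 10 counts required in every library, 41 were lower and 22 higher. At a change of over 1.5-fold and a p under 0.05 before adjustment, 21 were lower and 8 higher, beside 18.7% and 10.8% of all genes. Adamts6 and Adamts2 are also among these 21, and among the 33 lower with both trends removed. The counts of list genes lower and higher were 33 and 21 with both trends removed and 31 and 31 with the length trend alone removed. Calls over all genes also moved in these fits, from 3843 lower and 3864 higher to 3230 and 4107, and to 3095 and 4558.

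Without each library in turn, 5 to 6 genes were lower and 0 higher, the median lay between -0.91 and -0.87, and 39 to 43 list genes were lower and 22 to 24 higher. Removing 1 library leaves a group with 1 library, which is assumed to vary like the other group.

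Replicates share only a number, and the deviations of same-numbered libraries did not correlate (r = -0.0453). A replicate block gave 3810 genes lower and 3855 higher, against 3843 and 3864 without it, and changed no call of the 6 genes. Depth limits Thbs2, Tgfbi and Postn, for which no difference was detectable, and Tnc, whose SE is the widest.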
